A study of Caenorhabditis elegans with 2 samples.

Results

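The genes described here encode aminoacyl-tRNA synthetases and translation initiation and elongation factors of Caenorhabditis elegans, chosen by gene name. They number 71 of the 19985 protein-coding genes in the annotation: 32 synthetases, 31 initiation factors (names in eif-, ife- and ifg-) and 8 elongation factors (names in eef- and iff-, the last encoding eIF5A). Each gene was read for regions recovered with GFP-tagged HLH-13, which belongs with Ptf1a to the basic helix-loop-helix class of DNA-binding proteins. The chromatin came from whole late embryos of strain OP744, which carries the array wgIs744 in an unc-119 (tm4063) background. The array holds hlh-13::TY1::EGFP::3xFLAG with the rescuing unc-119(+). The embryos were aged 3.5 hours, with both sexes pooled, and came from egg bleaching. The labels describe immunoprecipitation with an antibody against GFP, while their antibody field names hlh-13. In all, 2 biological replicates made up the only group, read against 1 control library. The tagged HLH-13 came from a transgene, and whole embryos were used, so the values cannot be tied to a cell type. No second genotype, stage or treatment was available, and the genes are not replicates of one another, so no test was made over them. Their counts stand beside the same counts over all protein-coding genes.

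Aminoacyl-tRNA synthetases join each amino acid to its tRNA, initiation factors bring the ribosome and the initiator tRNA to the start codon, and elongation factors carry charged tRNAs into the ribosome and move it along the message. These genes are active in nearly every cell, and growing embryos depend on them. Basic helix-loop-helix factors bind as dimers to short DNA elements called E-boxes, with the letters CANNTG.

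Per replicate, and again for both replicates together, the authors deposited 30000 candidate regions, and such lists include background on purpose. Of the pooled regions they kept 423 as the optimal set, using the irreproducible discovery rate, a measure of how well replicate ranks match. Each region carries the authors' signal value, which rises with enrichment over the control and has no stated scale. In the pooled list it had a median of 34.2 and a lowest optimal value of 85.3. It had a median of 19.4 in replicate 1 and 20.5 in replicate 2, and values are compared within a list only. Rank 1 is the region of highest signal. A gene was given its best region with a summit in the promoter window, which reaches 1000 bp before and 200 bp past each of its transcript starts. Positions are 1-based on ce11 (WBcel235).

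Weak candidate regions were common at the translation genes and strong ones were few. A pooled candidate lay in the promoter window of 55 of the 71 genes (77.5%), against 38.3% of all protein-coding genes. An optimal peak lay in the window of 2 of the 71 (2.82%), ears-2 and eif-3.C, against 1.32% of all. With only 2 genes, that difference rests on single peaks. In between, 7 of the 71 (9.86%) had a region among the best 1000, against 2.93% of all genes. Among the best 5000 regions the counts were 24 of the 71 (33.8%), against 9.76% of all. Among the best 10000 they were 33 of the 71 (46.5%), against 17% of all.

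**Figure D1:**
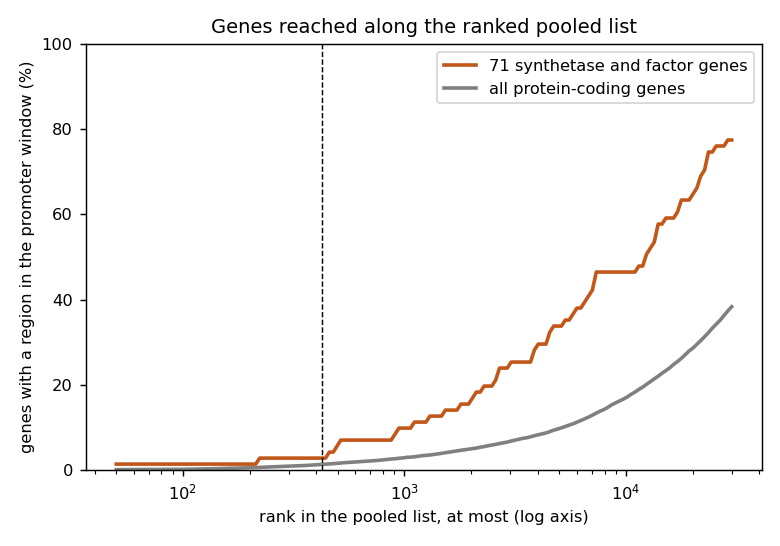
Share of genes (percent) with a pooled region of a given rank or better in the promoter window, against rank on a log axis, for the 71 synthetase and factor genes and for all 19985 protein-coding genes, with a dashed line at rank 423, the size of the optimal set. The line of the 71 genes reaches 9.86% at rank 1000, against 2.93% for all genes, and ends at 77.5%, against 38.3%.

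Each replicate's own list gave similar shares. Replicate 1 had a candidate at 52 of the 71 genes (73.2%), against 39.3% of all protein-coding genes. Replicate 2 had one at 54 of the 71 (76.1%), against 37.8% of all. Both replicates had one at 44 of the 71 (62%), against 23.4% of all, though not always at the same place. Of these genes, 42 also had a pooled region. Their best replicate summits lay within 100 bp of each other at 17 (40.5%), against 42.3% of all such protein-coding genes. Among the best 423 regions of replicate 1 were those of ears-2 and eif-3.C, so 2 of the 71, against 1.31% of all. Among the best 423 of replicate 2 were those of ears-2 and iff-2, again 2 of the 71, against 1.23% of all. Only ears-2 stood in the best 423 of both.

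The architecture of these loci also differed from that of all protein-coding genes, and its part in the counts was not tested. Of the 71 genes, 34 (47.9%) had a single annotated start, against 72.6% of all. An opposite-strand neighbour started within 1 kb upstream of 31 of the 71 (43.7%), against 17.5% of all. A same-strand neighbour lay within 500 bp upstream of 18 of the 71 (25.4%), an arrangement that in this species includes operons, against 18.1% of all. The median window length was 1206 bp for the 71 and 1201 bp for all, and the mean was 1561 bp against 1459 bp.

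Within each kind of locus the candidate share of the translation genes was also above that of all protein-coding genes of that kind. Where a divergent neighbour was near, 24 of 31 (77.4%) had a pooled candidate, against 48.0% of all such genes. Where a same-strand neighbour was close, 11 of 18 (61.1%) had one, against 36.3%. Where neither was near, 20 of 22 (90.9%) had one, against 36.3%. Among genes with 1 annotated start, 26 of 34 (76.5%) had a candidate, against 32.2%. Among genes with more starts, 29 of 37 (78.4%) had one, against 54.6%. The share with a region of rank 5000 or better showed the same order in each kind, with 26.5% against 7.37% for genes with 1 start and 38.7% against 16.1% for genes with a divergent neighbour. The kinds by neighbour and by number of starts were counted separately, with 18 to 37 of the translation genes in each. Expression level and chromatin openness were not measured here, and their part in these counts was not tested.

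Shares by role were close for any candidate and further apart in the better ranks, with no test made between roles. A pooled candidate was found at 24 of 32 synthetase genes (75%), 24 of 31 initiation factor genes (77.4%) and 7 of 8 elongation factor genes (87.5%). A region among the best 5000 was found at 7 of 32 synthetase genes (21.9%), 12 of 31 initiation factor genes (38.7%) and 5 of 8 elongation factor genes (62.5%). Over all protein-coding genes the shares were 38.3% for any candidate and 9.76% for the best 5000. Median pooled signal among genes with a region was 39.7 for synthetases, 46.3 for initiation factors and 49.5 for elongation factors. Over all 55 the median was 44.1 (quartiles 34.8 and 54.9), against 37.2 (quartiles 30.7 and 46.8) over the 7662 protein-coding genes with a region. All 3 medians lay below the lowest optimal value of 85.3.

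**Figure D2:**
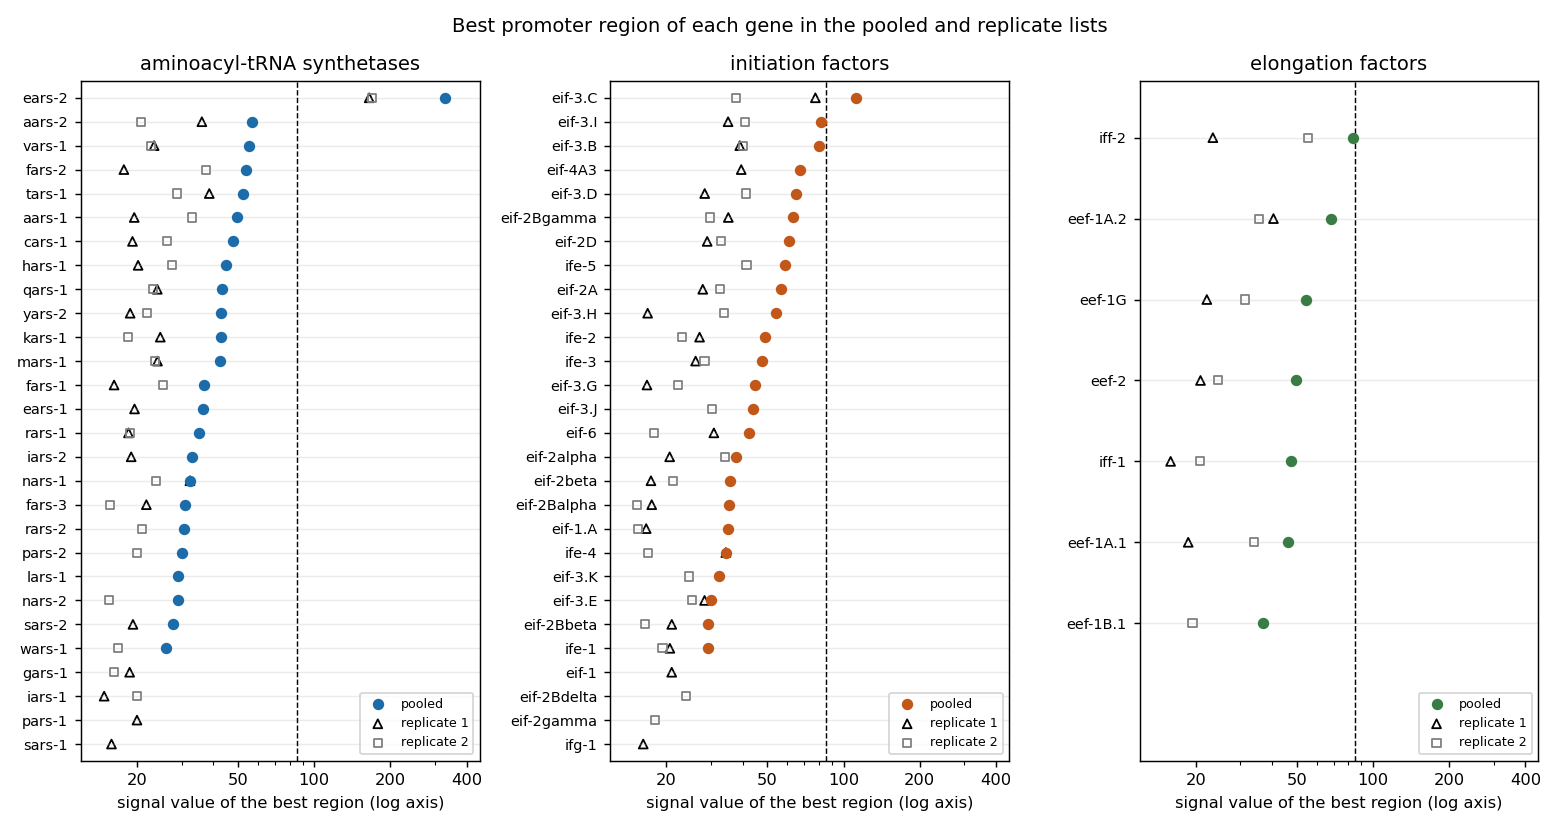
Signal value of the best region in each gene's promoter window (the authors' units, log axis) in the pooled list (filled circles), replicate 1 (triangles) and replicate 2 (squares), for genes with a region in any list, in panels by role; the dashed line is the lowest optimal value in the pooled list. Among pooled values only ears-2 at 329.6 and eif-3.C at 112.5 lie right of the line at 85.3. The replicate values of ears-2 are 164.9 (rank 17) and 168.5 (rank 12), each in its own list.

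Among the synthetases ears-2 stood alone. It encodes a mitochondrial glutamyl-tRNA synthetase, named by RefSeq as the nondiscriminating form. Its region had pooled rank 12 and signal 329.6, with 164.9 in replicate 1 (rank 17) and 168.5 in replicate 2 (rank 12). It was thus near the top of every list, and the replicate summits lay 4 bp apart. The region spans chrIV:390374-390581 and is 208 bp wide, with its summit at 390508, between genes and 40 bp upstream of ears-2. That position is also 52 bp upstream of uncp-18, which starts on the opposite strand, and the list does not tell which gene the region belongs to. The next synthetase, aars-2, which by its name charges alanine tRNA, had rank 2061 with signal 56.7, with 36.0 in replicate 1 and 20.7 in replicate 2. The gap between ears-2 and every other synthetase was therefore wider than the gap between the next synthetase and the weakest.

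The sequences at the summits of ears-2, of the best elongation factor genes iff-2 and eef-1A.2, and of eif-3.B are shown as regions of high signal from each role that lie at different distances from the start; eif-3.B came after eif-3.C and eif-3.I among the initiation factors. Each line gives 101 bases centred on the pooled summit, on the gene's strand, from the RefSeq copy of WBcel235. Capitals mark E-boxes (CANNTG) and the strings TTGCAACG and TTGCNAA on either strand; these strings were chosen after the sequences had been read. In iff-2 the capitals join an E-box, CAACTG, with an overlapping TTGCNAA on the other strand.
ears-2, chrIV:390458-390558, minus strand: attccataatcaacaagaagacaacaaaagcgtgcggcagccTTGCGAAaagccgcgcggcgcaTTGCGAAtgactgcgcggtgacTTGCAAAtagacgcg
iff-2, chrII:8561331-8561431, minus strand: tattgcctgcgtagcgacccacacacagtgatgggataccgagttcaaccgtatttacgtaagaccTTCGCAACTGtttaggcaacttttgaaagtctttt
eif-3.B, chrII:14795141-14795241, plus strand: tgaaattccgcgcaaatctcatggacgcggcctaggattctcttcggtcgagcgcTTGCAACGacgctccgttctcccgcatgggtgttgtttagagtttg
eef-1A.2, chrX:7823083-7823183, plus strand: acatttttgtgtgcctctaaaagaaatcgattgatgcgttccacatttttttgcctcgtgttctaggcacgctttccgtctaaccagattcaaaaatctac
The ears-2 window holds TTGCNAA in 3 copies on 1 strand, starting 8 bp before and 14 and 36 bp after the summit, and no E-box. The eef-1A.2 window holds none of the marked strings, and iff-2 is the only one of these 4 with an E-box.

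E-boxes were no more frequent at the translation genes than elsewhere. Within 50 bp of the summit an E-box lay at 13 of the 55 genes with a region (23.6%), against 35.0% of all protein-coding genes with a region, 31.7% of the optimal set and 35.0% of all pooled candidates. The E-box CACATG was found at 0 of the 55, against 3.47% of all genes with a region and 6.15% of the optimal set. The A box and the B box, internal promoter elements of tRNA genes, are frequent in the optimal set, where 41.1% of windows hold an A-box match and 20.3% a B-box match. At the translation genes 0 of 55 windows held either, against 7.33% and 0.822% of all genes with a region. The GC content of the windows had a median of 41.6% at the 55 genes, 41.6% at all genes with a region and 50.5% in the optimal set. A missing match says only that the letters are not in the window.

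The elongation factor genes had few members and the highest share in the better ranks. Best was iff-2, one of the genes for eIF5A, which helps the ribosome through difficult peptide bonds. Its region had pooled signal 83.5 at rank 454, just outside the optimal set, with 23.3 in replicate 1 (rank 8219) and 55.2 in replicate 2 (rank 269). The replicates thus placed it very differently, and their summits were 69 bp apart. The region, chrII:8561196-8561565, has its summit 14 bp upstream of the start. The other eIF5A gene, iff-1, had 47.4 in the pooled list, with 15.9 in replicate 1 and 20.7 in replicate 2, and its summit lay nearer the start of the cell cycle kinase gene cdk-1.

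The gene eef-1A.2 encodes a form of the factor that brings aminoacyl-tRNA to the ribosome. Its region, chrX:7822948-7823317, had rank 885 and pooled signal 68.3, with 40.5 in replicate 1 and 35.6 in replicate 2, so both replicates placed it high. Its summit lay 521 bp upstream of the start. Its paralogue eef-1A.1 had 46.0 in the pooled list at rank 5280, with 18.7 in replicate 1 and 33.9 in replicate 2, and the start of rfc-4 was nearer to that summit. The gene eef-2, for the factor that moves the ribosome along, had 49.5 with its summit 12 bp upstream. Of the exchange factor genes that recharge eEF1A with GTP, eef-1G had 54.3 and eef-1B.1 had 36.7, the lowest pooled value among elongation factors. In replicate 2 eef-1B.1 had 19.4, and replicate 1 held no region there. No list held a region at eef-1B.2. Of the 7 elongation factor genes with a region, 6 (85.7%) shared it with another coding gene's window, against 26.0% of all genes with a region. Another coding gene's start was nearer in 4 of the 7 (57.1%), eef-1G and iff-1 among them, against 13.3% of all.

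Among the initiation factors the highest single values were at subunits of eIF3, although 2 of its genes had no pooled candidate. eIF3 is a large complex that binds the small ribosomal subunit and holds the other initiation factors on it. Of its 11 genes, 9 had a pooled candidate, against 38.3% of all protein-coding genes, and 5 had one among the best 5000, against 9.76% of all. Over all initiation factor genes the shares were 77.4% and 38.7%, so the eIF3 counts were near those of their role. The pooled values of the 9 had a median of 54.0 and a range from 30.0 to 112. The best was eif-3.C, a core subunit, at rank 217 with signal 112.5, with 77.4 in replicate 1 (rank 127) and 37.7 in replicate 2 (rank 1197). Replicate 1 thus carried more of its rank, though the replicate summits were 14 bp apart. The region lies on chromosome I at 9979685-9980054, between genes, with its summit 208 bp upstream of the start.

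Of the eIF3 genes next in order, eif-3.I and eif-3.B were closer in rank between replicates than eif-3.C, and eif-3.D was not. For eif-3.I, a subunit built of WD repeats, the pooled signal was 81.1 at rank 492, with 35.0 in replicate 1 (rank 1367) and 40.9 in replicate 2 (rank 800). Its region, on chromosome I at 2487752-2488121, has its summit 467 bp upstream of the nearest start and in an intron of the gene. For eif-3.B, a scaffold subunit, the pooled signal was 80.1 at rank 510, with 39.0 in replicate 1 (rank 837) and 40.0 in replicate 2 (rank 890). Its region, chrII:14795006-14795375, lies 213 bp upstream by its summit. These regions fall just outside the optimal set, whose lowest value was 85.3. For eif-3.D the pooled signal was 64.9 at rank 1090, with 28.3 in replicate 1 (rank 3729) and 41.0 in replicate 2 (rank 784), and the start of R08D7.4 was 5 bp from that summit.

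**Figure D3:**
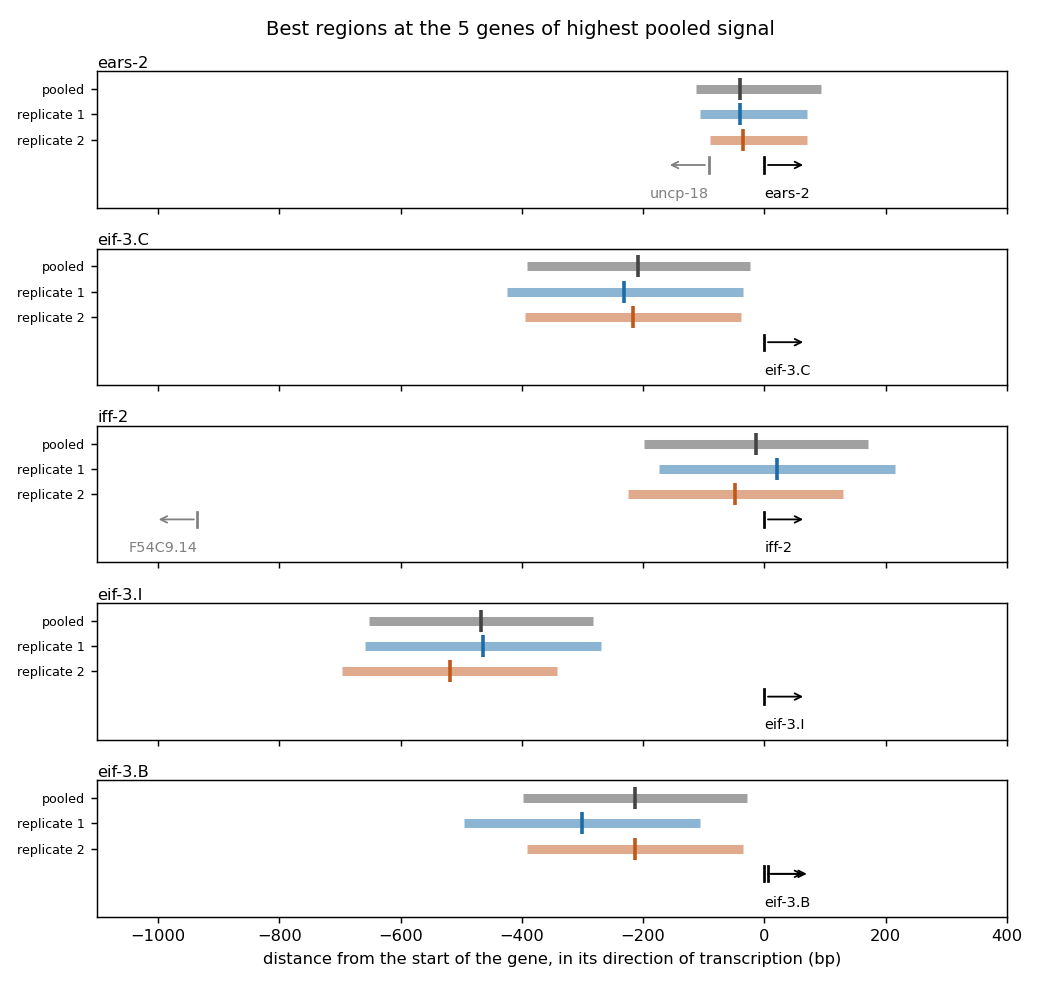
Best regions of the 5 genes of highest pooled signal as bars along distance from the gene's start in its direction of transcription (bp, negative upstream), for the pooled list and each replicate, with the summit as a tick, the gene's starts as black arrows and neighbouring coding starts as grey arrows. At ears-2 the summits lie 40, 40 and 36 bp upstream in the pooled list, replicate 1 and replicate 2, and at eif-3.C 208, 231 and 217 bp upstream.

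Initiation factors outside eIF3 overlapped it in signal. The gene eif-4A3 encodes an RNA helicase known in human cells as a core of the exon junction complex. Its region, on chromosome I at 636641-637010, had pooled signal 67.3 at rank 937 and 39.5 in replicate 1, while replicate 2 held no region in its window. The start of vps-20 was 22 bp from the summit, against 481 bp for eif-4A3. The ife genes encode eIF4E, the protein that binds the cap of messenger RNA. All 5 had a pooled candidate, against 38.3% of all protein-coding genes, and 3 were among the best 5000, against 9.76% of all. A set of 5 genes is too small to set against those shares. Pooled values of the ife genes ran from 29.2 at ife-1 to 58.5 at ife-5. At ife-5 replicate 2 had 41.4 and replicate 1 held no region, and at ife-3 the replicates had 26.1 and 28.3 with a pooled value of 47.8. At ife-1, among the lowest initiation factor values, the replicates had 20.6 and 19.3 in the order of their numbers. Those values came from different places, with summits 585 bp apart.

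The genes eif-2D and eif-2A encode factors that in mammals can deliver initiator tRNA in place of eIF2. eif-2D had 60.7 in the pooled list, with 29.0 in replicate 1 (rank 3364) and 32.7 in replicate 2 (rank 2416). eif-2A had 56.9, with 27.8 in replicate 1 (rank 4016) and 32.7 in replicate 2 (rank 2443). The pooled summit of eif-2A lay 40 bp upstream of its start. eIF2 itself carries the initiator tRNA and eIF2B reloads it with GTP. Of the 3 eIF2 genes, 2 had a candidate, eif-2alpha with 37.7 and eif-2beta with 35.6. Of the 5 eIF2B genes, 3 had a candidate, from 29.3 at eif-2Bbeta to 63.0 at eif-2Bgamma. Over all protein-coding genes 38.3% had a candidate, and sets of 3 and 5 genes are too small to set against that share. At eif-2Bbeta the replicates had 21.0 and 16.4, at summits 565 bp apart. At eif-2Bgamma they had 35.1 and 29.6, and this summit lay 868 bp upstream at sup-39, annotated as a small nuclear RNA gene, with 72.9% of its 32-base words unique in the genome. It was the only 1 of the 55 regions (1.82%) within 100 bp of a tRNA, snoRNA or snRNA gene, against 1.61% of all protein-coding genes with a region. Apart from eif-2Bgamma, fars-2 (91.4%) and cars-1 (81.4%), all 32-base words in these windows were unique.

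Below ears-2 the synthetase genes formed a gradual series. Those numbered 1 had a candidate in 14 of 20, with a median of 42.7 and a range from 26.1 to 55.5. Those numbered 2 or 3 had one in 10 of 12, with a median of 32 and a range from 27.8 to the 330 of ears-2. Over all protein-coding genes 38.3% had a candidate. Regions among the best 5000 lay at 4 of 20 and 3 of 12, against 9.76% of all protein-coding genes. After aars-2 came vars-1 (valine) with 55.5, and 23.3 and 22.8 in replicates 1 and 2. fars-2 (phenylalanine) had 54.0, with 17.7 in replicate 1 and 37.4 in replicate 2, at summits 715 bp apart. tars-1 (threonine) had 52.4, with 38.5 in replicate 1 and 28.9 in replicate 2, and the start of kel-1 was nearer to its summit. These pooled values lie close together, while the replicates order the genes differently. aars-1, the other gene named for alanine, had 49.6, with 19.5 in replicate 1 and 32.8 in replicate 2, so the genes named for alanine stood near each other in the pooled list. The lowest were sars-2 (serine) with 27.8 and wars-1 (tryptophan) with 26.1. At sars-2 replicate 1 had 19.3 and replicate 2 none, and at wars-1 replicate 2 had 16.9 and replicate 1 none. The replicate 1 summit of sars-2 was at 4358236, away from its pooled summit at 4357545. Far below ears-2, ears-1, the other glutamyl-tRNA synthetase gene by name, had 36.3 at rank 12496, with 19.5 in replicate 1 and none in replicate 2. The genes named for glutamyl-tRNA synthetase thus stood far apart in the list.

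At 16 genes no pooled candidate lay in the window, and at 8 of them no list held one: dars-1, dars-2, lars-2 and yars-1 among synthetases, eif-2Bepsilon, eif-3.F and eif-3.L among initiation factors, and eef-1B.2. These include both genes named for aspartyl-tRNA synthetase. A further 4 had a candidate in replicate 1 only, eif-1, ifg-1, pars-1 and sars-1, where ifg-1 encodes the eIF4G scaffold and eif-1 a factor in start codon choice. In replicate 2 only there were 2, eif-2Bdelta and eif-2gamma. gars-1 and iars-1 had one in each replicate and none in the pooled list, and lars-1 had one in the pooled list only. Lists of 30000 regions end at a low signal, so an absent gene is one without a region among them.

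Replicate agreement was modest outside the top. Over the 44 genes with a region in both replicates, the Spearman correlation of signal was 0.396, and 0.353 without ears-2. Over all 4676 protein-coding genes with a region in both it was 0.359. The points share 1 control library and no p is attached. Where the replicate summits lay within 100 bp it was 0.647 over 17 translation genes and 0.522 over 1844 of all genes. The 17 include ears-2, and the value without it was not computed. The widest gaps in rank were at ife-4, with 34.3 in replicate 1 (rank 1492) and 17.0 in replicate 2 (rank 24256), at summits 386 bp apart. eif-3.H had 16.9 in replicate 1 (rank 21576) and 33.7 in replicate 2 (rank 2077), at summits 737 bp apart. eif-6, whose product in yeast and mammals keeps ribosomal subunits apart, had 30.8 in replicate 1 (rank 2528) and 17.9 in replicate 2 (rank 21415). At ife-4 and eif-3.H the replicates thus had different best regions in the window. Summits also lay far apart at other genes, such as eif-2alpha (1985 bp) and nars-1 (727 bp). They lay within 100 bp at 17 of the 44.

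**Figure D4:**
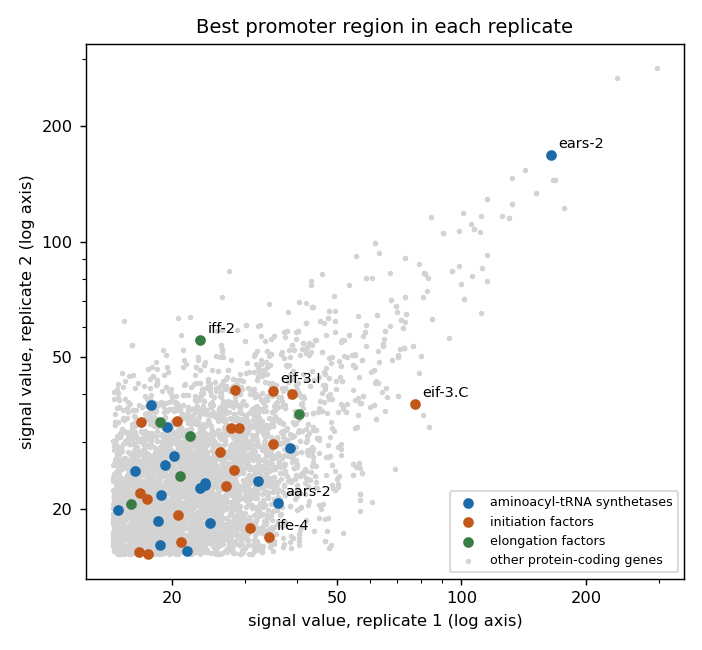
Signal value in replicate 2 against that in replicate 1 (the authors' units, log axes) for the 44 synthetase and factor genes with a region in both lists, coloured by role, over the other protein-coding genes in grey. ears-2 lies far from the rest of the 44 at 164.9 and 168.5, and the others spread through the grey points, with a Spearman correlation of 0.353.

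Summits lay at distances from the start like those of all genes. The median distance was 301 bp (quartiles 94 and 674) over the 55 genes, against 291 bp (quartiles 117 and 612) over all protein-coding genes with a region. The window itself lies mostly upstream of the start. The summit was upstream of the nearest start of the gene in 50 of 55 (90.9%), against 81.6% of all. It was within 250 bp in 25 of 55 (45.5%), against 46.0% of all. By annotation 24 of the 55 (43.6%) were intergenic, against 51.3% of all. Coding exons held 17 (30.9%), against 22.5%, introns 6 (10.9%), against 17.2%, and untranslated exons 8 (14.5%), against 9.07%.

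**Figure D5:**
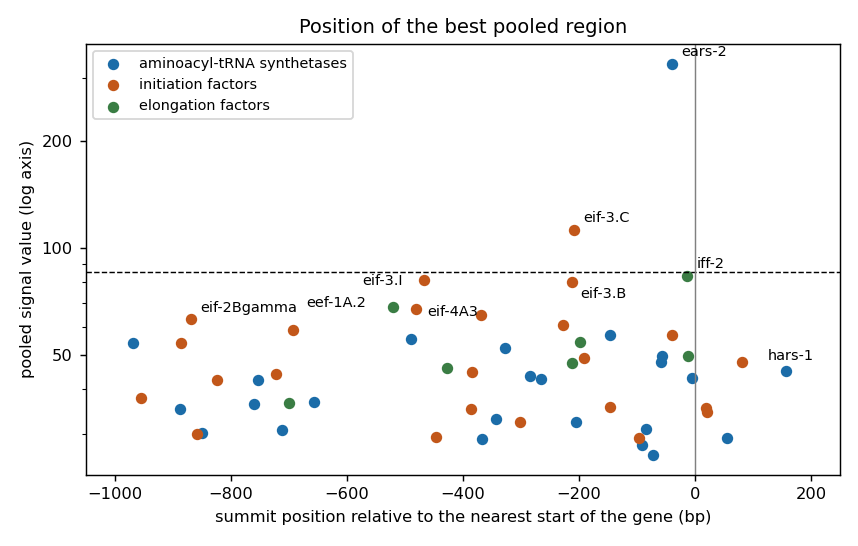
Pooled signal value (log axis) of each of the 55 genes with a region against the position of its summit relative to the nearest start of the gene (bp, negative upstream), coloured by role, with a dashed line at the lowest optimal value of 85.3. Summits spread over the whole upstream window, with 50 of 55 left of the start, and the highest, ears-2, lies 40 bp upstream.

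Many of these regions could belong to a neighbour. The summit lay also in the window of another coding gene in 25 of 55 (45.5%), against 26.0% of all genes with a region. Another coding gene's start was nearer in 15 of 55 (27.3%), against 13.3% of all. Among the 7 genes within the best 1000 regions only eif-4A3 had a nearer neighbour start. In eif-2D (60.7), ife-5 (58.5) and eef-1G (54.3), which stood further down, another start was also nearer, that of ndub-5, tric-1B.2 and ctf-4 in that order. Signal at those genes cannot be assigned to 1 gene of the pair.

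A list of 47 other translation genes lay outside the name rule, of which 42 matched the annotation. It covered initiation genes under other names, such as iffb-1, with termination, translational control, mitochondrial translation and tRNA modification. Nucleolar genes such as fib-1 were also in it. A pooled candidate lay at 24 of the 42 (57.1%), against 38.3% of all protein-coding genes. An optimal peak lay at 3 of the 42 (7.14%), against 1.32% of all. The first was elpc-4, for a subunit of the Elongator complex that modifies tRNA, with pooled signal 100.3 and 46.1 and 51.7 in replicates 1 and 2. Its summit lay 957 bp upstream, nearer the start of C26B2.7. The second was erfa-3, for a release factor that ends translation, with 93.9, and 51.4 and 43.4 in the replicates. The third was fib-1, for fibrillarin, which methylates ribosomal RNA, with 86.0, and 32.8 and 47.9 in the replicates. The median of the 24 was 43.5, close to the 44.1 of the translation genes chosen by name.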

How the data were processed

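Chromatin immunoprecipitation followed by sequencing was done on 2 biological replicates of 1 group. Per the submitters' file manifests, candidate regions were called on each replicate's alignments and on both together, with 1 control library, and the optimal set was made from these lists. Per the labels, positions are on ce11. The aligner, the caller and the cutoff on the irreproducible discovery rate were not given in the sources used here. Each signal value was deposited by the authors, and nothing was rescaled. The lists hold no read counts, so depth is unknown and no interval from counts was given. The optimal set was checked to equal the best 423 pooled regions by signal.

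Gene models were those of Ensembl release 115 on WBcel235, which is the ce11 assembly. Regions were placed by their summits in windows reaching 1000 bp before and 200 bp past each start of a coding transcript; an annotated start can be a trans-splice site that lies downstream of where transcription begins. Motifs were searched on both strands within 50 bp of the summit, the A box and B box as degenerate patterns. Uniqueness is the share of 32-base words that occur once in the genome. Placement was tested on simulated data.

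The genes and lists were chosen with earlier results of these data known. The genes described singly were those with an optimal peak or a region among the best 423 of a replicate, those among the best 1000 pooled regions, the 2 highest and 2 lowest of each role, the 3 with the widest gap in replicate ranks and those in no list. Others were named after their values were seen. The labels call the replicates biological and do not say how the embryo cultures were kept apart. The work used pandas 2.3.3 and numpy 2.4.6 under Python 3.11.15, with scipy 1.17.1 for correlations and matplotlib 3.10.9 for plots. Alternatives were other windows, other assignment rules, each replicate alone and other sizes of the best set.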

Additional observations from a re-analysis of the deposited data

How the results depend on the processing

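The count of translation genes with a pooled candidate, 55, ranged from 42 (nearest start only, against 32.3% of all genes) to 58 (2000 bp upstream, against 52.9%) and lay within 1.5 times the reported count in every alternative run. It was 43 with windows of 500 bp upstream (against 25.4%), 56 with any overlap (45.1%), 53 with the most upstream start (34.7%), 54 without replicate 1 (37.8%) and 52 without replicate 2 (39.3%). It was 56 with genes named so by RefSeq only, an alternative chosen after seeing the data. The count with candidates in both replicates, 44, was 31 with the shorter window (against 12.8%), 31 by nearest start (18.0%) and 52 with the longer window (37.5%). The count with an optimal peak was 2 in 9 alternatives. Each replicate alone is among these, with the best 423 regions of its list standing for the optimal set. The 2 genes were then ears-2 and eif-3.C in replicate 1, and ears-2 and iff-2 in replicate 2. The equal count thus does not stand for the same genes. The count moved to 1 in the better 211 regions, against 0.595% of all genes, and to 5 among the best 846, against 2.56%, since these sets hold fewer and more regions. Counts of 1 to 5 genes limit what can be read from it. No paired analysis was possible because the series has 1 group.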

Other observations

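Ribosomal protein genes, named rpl- and rps-, are the other large set of the translation apparatus. A pooled candidate lay at 60 of 78 (76.9%), against 38.3% of all protein-coding genes, and an optimal peak at 11 of 78 (14.1%), against 1.32% of all. The share with a candidate was close to the 77.5% of the synthetase and factor genes, and the share with an optimal peak was above their 2.82%; the difference was not tested. A region among the best 1000 was found at 16 of 78 (20.5%), against 2.93% of all, and the median pooled signal over the 60 was 42.9.

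The summit windows of the 7 synthetase and factor genes within the best 1000 regions were compared in 21 pairs after their values were seen. The longest shared string had 10 bases and joined eif-3.C and eif-3.B, both subunits of eIF3. It contains TTGCAACG, which lay at 2 of the 55 windows (3.64%), against 0.248% of all protein-coding genes with a region and 0.236% of the optimal set. TTGCNAA lay at 9 of the 55 (16.4%), against 9.12% of all genes with a region and 10.9% of the optimal set. As the strings were picked from these windows, the counts describe them and support nothing further.

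RefSeq names 1 further synthetase gene that Ensembl lists only by its sequence name, mars-2 (Y105E8A.20). It had pooled signal 28.0 at rank 24891, with 16.8 in replicate 1 and 15.3 in replicate 2, near the low end of the synthetase genes.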
